A study of Homo sapiens with 8 samples.

Results

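The change that sodium pentaborate pentahydrate (NaB) made on top of curcumin (Cur) and piperine (Pip) was examined in HepG2 cells, a human liver cancer line. It is the difference between 2 libraries of the 8 in the series, HepG2 treated with NaB, Cur and Pip (the combination) and HepG2 treated with Cur and Pip, and it was read from 12451 of the 17250 genes listed in 1 or more of the 8 libraries. A gene entered when its summed FPKM was 1 or more in either library. FPKM is a fragment count scaled for transcript length and library size, as Cufflinks gave it for each assembled transcript. The FPKM of a gene adds up its transcripts, those with at least 50% of their exonic bases in it on the same strand.

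The cells were treated for 48 h. Both libraries carry the same Cur (30 µM) and the same Pip (6 µM), and the combination adds NaB at 2500 µM. HepG2 cells with NaB alone, untreated HepG2 cells, and the same 4 conditions under the label Hep3B, where NaB was 1700 µM, make up the other 6 libraries. There is 1 library per condition, so no difference between the 2 libraries has a replicate check, no p-value is given for it, and each fold change compares 2 libraries. RNA was isolated in triplicate by the study's methods, which do not say whether the triplicates were pooled.

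Boron salts such as NaB release boric acid, which cells take up and which forms reversible esters with sugars and nucleotides. Cur, the yellow polyphenol of turmeric, is an electrophile that activates stress pathways such as those of the transcription factors NRF2 and ATF4, and Pip, an alkaloid of pepper, slows its breakdown. ATF4 is translated when the initiation factor eIF2 is phosphorylated, and it switches on genes for amino acid synthesis and uptake and for the charging of transfer RNAs. The p53 protein switches on cell cycle brakes and death genes, while the genes of mitosis are switched off together in cells that leave the cell cycle.

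The libraries rested on an estimated 25.6 M fragments after the combination and 30.4 M after Cur and Pip. They held 33907 and 36652 transcripts, of which 70.45 and 70.42% could be assigned to a gene, and 32.2 and 34.1% of the transcripts had a single exon. Of 40 hepatocyte markers, 35 and 36 had an FPKM of 1 or more, with a summed FPKM of 8789 and 12335, and ALB, the serum albumin gene, had 2989 FPKM after the combination and 2998 FPKM after Cur and Pip. ALB was listed at 0 in untreated HepG2 cells although other hepatocyte markers were present there, so a 0 in these files need not mean a silent gene. Markers of endothelial cells and of fibroblasts summed to 5.73 and 2.29 FPKM after the combination and to 20.7 and 2.39 FPKM after Cur and Pip, and by exon depth the endothelial sum was 18.07 and 18.11. Of the 12 leukocyte markers PTPRC and CD3E were listed in neither library. The summed level of 303 FPKM after the combination and 209 FPKM after Cur and Pip was mostly lysozyme, LYZ. CD74 had 44.8 and 56.1 FPKM in the same order. By exon depth the leukocyte sum was 363 and 300, and CD68, listed at 0 in both libraries, had 76.5 and 98.2. The 4 libraries labelled Hep3B had 4 to 6 of the 40 hepatocyte markers at an FPKM of 1 or more, so they go against a liver cell label, and they are used only beside the HepG2 values and as 2 of the 4 pairs of the limma fit.

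With NaB on top of Cur and Pip, a limited share of the genes was past a log2 fold change of 1.5. The median log2 fold change was −0.002, with an interquartile range of −0.54 to 0.46. FPKM is scaled for library size, so a median near 0 does not show that the total RNA was unchanged. Past the limit were 667 genes that were higher after the combination, 5.36% of those compared, and 1017 that were lower, 8.17%. Most of these calls came from genes that were assembled in only 1 of the libraries: 452 of the higher genes were listed at 0 after Cur and Pip, and 729 of the lower ones were listed at 0 after the combination. Among the 10836 genes listed in both libraries, 215 were higher (1.98%) and 288 were lower (2.66%). Each fold was taken after adding a pseudocount of 1 to the FPKM before the log2, so changes of low genes are understated.

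A gene can look silent because its reads were assembled into a neighbour's transcript, so each gene was also measured by its exon depth, the mean FPKM that all transcripts of its strand put on the exonic bases of its main annotated transcript. By both measures 320 genes were higher (2.57%) and 464 were lower (3.73%), and of the genes listed in both libraries 88 (0.812%) and 117 (1.08%). In bulk RNA, fewer cells with a transcript and less of it per cell cannot be told apart. Each gene was given an interval by combining the 95% intervals that Cufflinks gave its transcripts, as if their estimates were independent. These intervals did not overlap between the 2 libraries for 67.6% of the genes listed in both. They cover the estimate from 1 library and hold no spread between cultures.

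**Figure D1:**
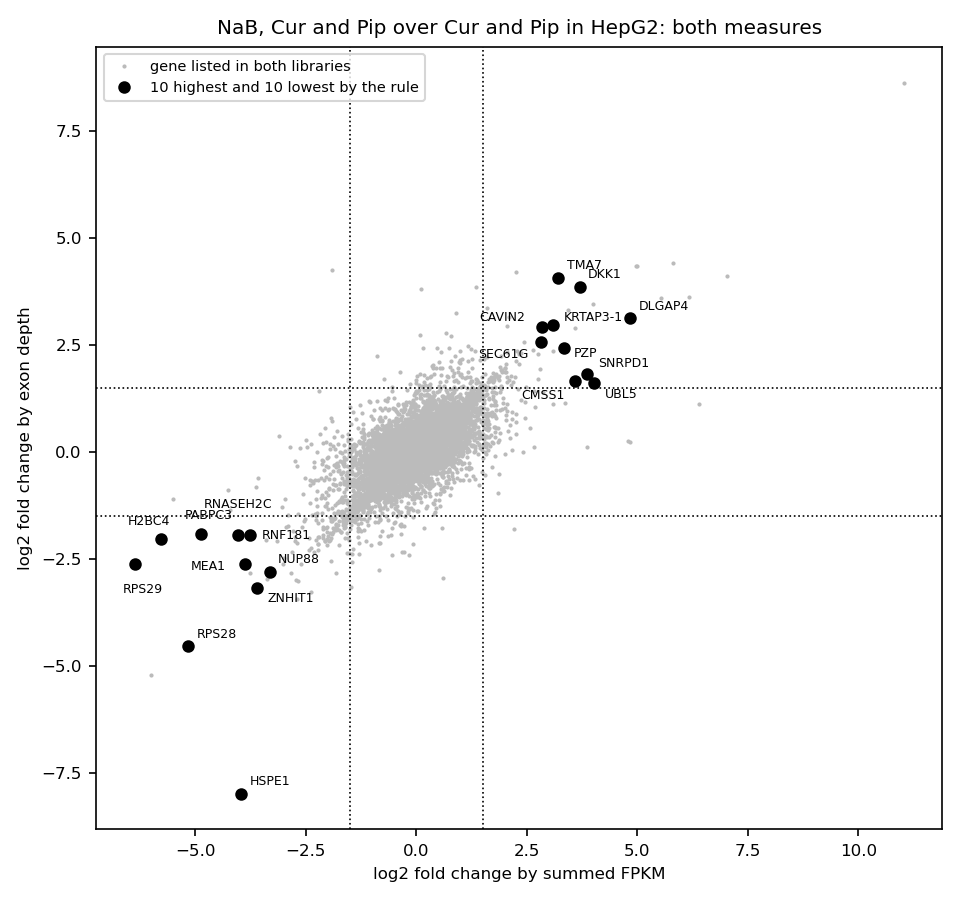
Log2 fold change of the combination over Cur and Pip in HepG2 by summed FPKM (x axis) and by exon depth (y axis) for the 10836 genes listed in both libraries (grey points), with the 10 highest and 10 lowest protein-coding genes of the naming rule in black and dotted lines at 1.5 and −1.5. The black points fall outside the lines on both axes, DKK1 at 3.69 and 3.86 and RPS28 at −5.15 and −4.54, while single grey points past the line on one axis lie near 0 on the other.

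Of the protein-coding genes that were listed in both libraries, had an FPKM of 5 or more in 1 or both, had disjoint intervals and were past the limit on both measures, 63 were higher and 98 were lower. DKK1, on chromosome 10 from 52314281 to 52318042 in GRCh38, encodes a secreted inhibitor of Wnt signalling. It had 224 FPKM (interval 213 to 234) after the combination, against 16.4 FPKM (14.8 to 17.9) after Cur and Pip, a log2 fold change of 3.69 by FPKM and 3.86 by exon depth. NaB alone and control cells had 105.0 and 104.5 FPKM of DKK1, so of the 4 HepG2 libraries the one with Cur and Pip was low. SEC61G, a subunit of the channel that takes proteins into the endoplasmic reticulum, had 282 FPKM after the combination and 39.3 FPKM after Cur and Pip. CAVIN2, a coat protein of caveolae, had 18.5 and 1.72 FPKM in the same order, and PZP, a protease inhibitor of plasma, had 240 and 22.9 FPKM. By exon depth PZP had 10.6 and 1.17, and NaB alone and control cells had 4061 and 189 FPKM of it. TMA7, UBL5, SNRPD1, CMSS1, KRTAP3-1 and DLGAP4 complete the 10 highest, with log2 fold changes of 3.09 to 4.84. SNRPD1 is a core protein of spliceosomal particles, and it had 33.9 FPKM after the combination, against 1.39 FPKM after Cur and Pip. By exon depth SNRPD1 had 15.2 and 3.56, a smaller log2 fold change (1.83, against 3.87 by FPKM). NaB alone and control cells had 37.9 and 43.2 FPKM of it.

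Among the 10 lowest genes were RPS29 and RPS28, both proteins of the small ribosomal subunit. RPS28 had 15.4 FPKM after the combination and 583 FPKM after Cur and Pip (log2 fold change −5.15), while NaB alone and control cells had 690 and 37.7 FPKM. H2BC4, a replication-dependent histone gene, had 0.84 FPKM after the combination, against 98.9 FPKM after Cur and Pip, but an exon depth of 20.8 and 88.6. RNASEH2C, a subunit of the nuclease that removes ribonucleotides from DNA, had 3.31 FPKM after the combination and 70.0 FPKM after Cur and Pip. Its exon depth was 3.31 and 15.5. NUP88, a protein of the nuclear pore, had 0.72 and 16.0 FPKM in the same order. PABPC3, MEA1, RNF181 and ZNHIT1 were lower by 3.59 to 4.86 on the log2 scale. HSPE1, the mitochondrial co-chaperonin, was at 18.0 FPKM after the combination and 294 FPKM after Cur and Pip, and its direction turned round, to 4.25, when transcripts that cover several protein-coding genes were left out on the log2 scale.

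Genes with processed copies have uncertain levels, because near-identical sequences share reads. Of the 230 processed pseudogenes listed in both libraries, 22 were higher and 17 were lower past the limit. Among all genes listed in both, 1.98% were higher and 2.66% were lower. EEF1A1P25, a processed copy of the elongation factor gene EEF1A1, had 8947 FPKM after the combination and 3.31 FPKM after Cur and Pip, while EEF1A1 itself had 1502 FPKM after the combination and 5649 FPKM after Cur and Pip. EEF1A1 and its copy were chosen after their values were seen.

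Targets of ATF4, which include genes of amino acid supply, were mostly lower after the combination than after Cur and Pip. Of 22 listed targets of ATF4 and its partner CHOP, 20 were compared, and 8 were lower and 1 higher past the limit, with a median log2 fold change of −1.02 by FPKM and −0.84 by exon depth, beside −0.002 and 0.05 over all genes. Of all genes 8.17% were lower and 5.36% were higher, and the counts of every list below stand beside these shares. Among the 18 targets listed in both libraries 6 were lower and 1 was higher, and on both measures also 6 and 1 of the 20. CHAC1, which degrades glutathione, was under the FPKM of 1 in both libraries and was not compared.

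ASNS, asparagine synthetase, lies on chromosome 7 from 97851677 to 97872542 on the minus strand. It had 8.37 FPKM (7.43 to 9.30) after the combination, against 65.2 FPKM (62.1 to 68.2) after Cur and Pip, a log2 fold change of −2.82 by FPKM and −2.83 by exon depth. By exon depth it stood at 6.57 after the combination and 52.9 after Cur and Pip, and at 3.30 after NaB alone and 25.7 in control cells, so both libraries with NaB were below both without. TRIB3, a pseudokinase that binds AKT and ATF4, had 35.4 FPKM after the combination and 188 FPKM after Cur and Pip, and NaB alone and control cells had 43.2 and 91.7 FPKM. NUPR1, a small stress-induced chromatin protein, had 11.9 FPKM after the combination and 60.9 FPKM after Cur and Pip, with 13.4 and 28.8 FPKM in NaB alone and control cells. STC2, a secreted glycoprotein, had 10.1 and 33.7 FPKM in the combination and in Cur and Pip, and SLC7A11, the cystine importer, had 20.2 and 69.6 FPKM, a call that was lost by exon depth (−0.85).

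CEBPB and PPP1R15A, a transcription factor and the phosphatase subunit that acts on eIF2, were listed at 0 after the combination, with 169 and 175 FPKM after Cur and Pip. Reads lay on their exons all the same, since CEBPB had an exon depth of 38.9 after the combination and 148 after Cur and Pip, and PPP1R15A had 64.0 and 161. ATF5, a transcription factor related to ATF4, was the 1 target past the limit in the other direction. ATF5 had 95.6 FPKM after the combination, against 28.7 FPKM after Cur and Pip (log2 fold change 1.70 by FPKM and 1.75 by exon depth). ATF4 itself had 384 and 269 FPKM in the same order and ATF3 had 55.9 and 27.5 FPKM, neither past the limit. DDIT3, which encodes CHOP, had 43.1 FPKM after the combination and 75.9 FPKM after Cur and Pip, and it was listed at 0 in NaB alone and control cells.

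The serine and one-carbon pathway held 17 compared genes of 19, of which 4 were lower and none was higher, with a median of −0.29. On both measures 1 was lower, PHGDH. PHGDH, the first enzyme of serine synthesis, had 12.9 FPKM after the combination and 40.8 FPKM after Cur and Pip, and PSAT1, the second, had 19.9 and 44.5 FPKM. MTHFD2, a mitochondrial folate enzyme, had 14.5 and 66.8 FPKM in the same order, with an exon depth of 14.4 and 29.99. SHMT2, which makes glycine from serine, had 27.4 FPKM after the combination and 69.4 FPKM after Cur and Pip. TYMS, which makes thymidylate, had a log2 fold change of 0.45.

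All 20 cytoplasmic aminoacyl-tRNA synthetases, which load amino acids on their tRNAs, were compared, with a median of −0.75 by FPKM and −0.71 by exon depth. By exon depth 14 of the 20 were below 0, beside 46.0% of all genes. Past the limit were only KARS1 and QARS1, both listed at 0 after the combination, and QARS1 had an exon depth of 41.9 after the combination and 32.1 after Cur and Pip, so its call did not hold by exon depth. None of the 18 listed in both libraries was past the limit. CARS1, the cysteine enzyme, had 8.201 FPKM after the combination and 21.4 FPKM after Cur and Pip, YARS1 had 22.5 and 51.3 FPKM, and AARS1 had 24.3 and 51.6 FPKM. VARS1 and LARS1 had log2 fold changes of 0.08 and 0.38.

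**Figure D2:**
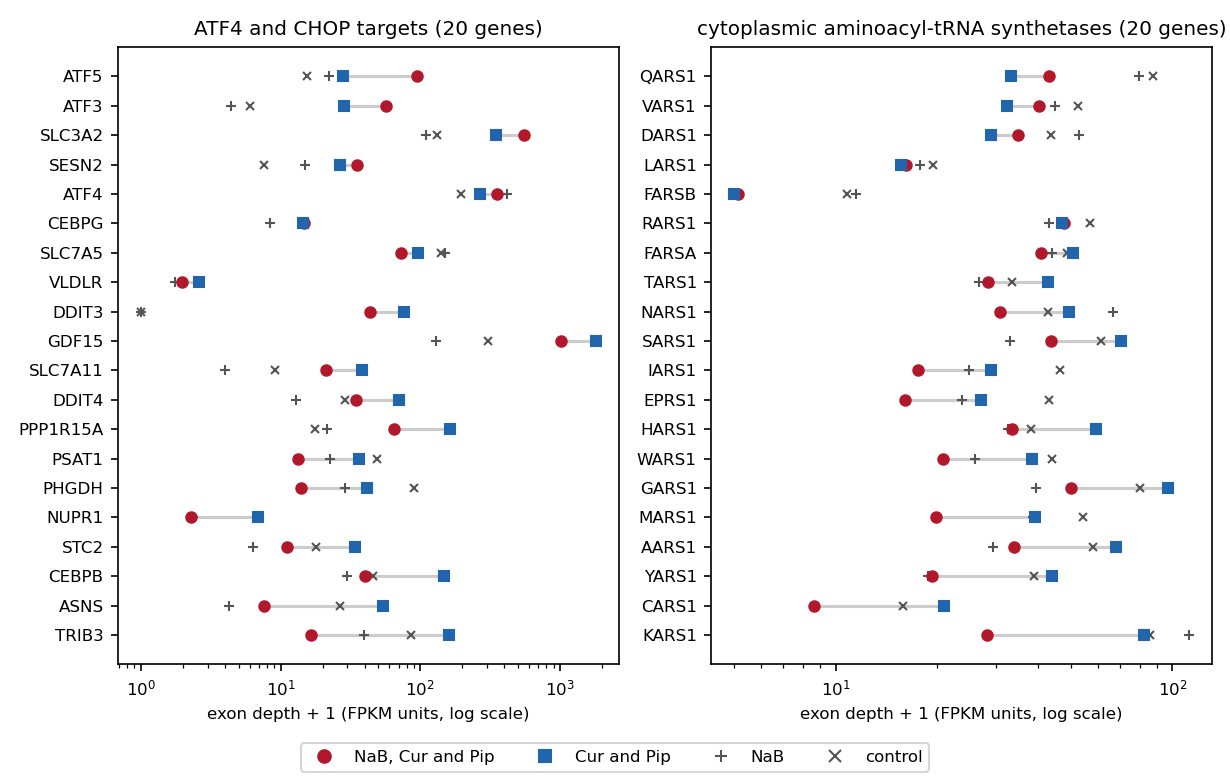
Exon depth plus 1 (x axis, FPKM units, log scale) of the 20 compared ATF4 and CHOP targets (left) and the 20 cytoplasmic aminoacyl-tRNA synthetases (right) in HepG2 after the combination (red circles), Cur and Pip (blue squares), NaB (plus signs) and in control cells (crosses), 1 library each. Most red circles lie left of the blue squares, as for ASNS at depths of 6.57 and 52.9, and ATF5, ATF3, ATF4 and SLC3A2 are among the 6 targets that lie the other way.

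The promoters of these genes were searched for the C/EBP-ATF response element, the site where ATF4 binds with C/EBP proteins, written TGATGNAA and read on both strands from 250 bases before to 50 bases after the RefSeq start (GRCh38.p14). It was found in 3 of 18 ATF4 and CHOP targets with a promoter in the table, in 1 of 12 serine and one-carbon genes and in 6 of 16 aminoacyl-tRNA synthetases (37.5%), beside 3.67% of all 27305 promoters. The synthetases with a match were AARS1, CARS1, IARS1, MARS1, NARS1 and TARS1, with log2 fold changes of −1.29 to −0.13. A match describes the letters and is no evidence of binding. The promoters of ASNS (chr7:97872359-97872658, minus strand) and CARS1 (chr11:3057374-3057673, minus strand) are shown because they had the lowest fold change by exon depth among the members with a match, with the element in capitals, 68 and 2 bases before the start.
ASNS: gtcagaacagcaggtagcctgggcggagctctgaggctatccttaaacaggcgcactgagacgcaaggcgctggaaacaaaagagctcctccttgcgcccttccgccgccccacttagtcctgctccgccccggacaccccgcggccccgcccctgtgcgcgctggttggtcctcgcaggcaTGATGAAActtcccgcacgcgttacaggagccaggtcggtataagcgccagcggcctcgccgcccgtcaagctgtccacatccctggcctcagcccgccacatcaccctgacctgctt
CARS1: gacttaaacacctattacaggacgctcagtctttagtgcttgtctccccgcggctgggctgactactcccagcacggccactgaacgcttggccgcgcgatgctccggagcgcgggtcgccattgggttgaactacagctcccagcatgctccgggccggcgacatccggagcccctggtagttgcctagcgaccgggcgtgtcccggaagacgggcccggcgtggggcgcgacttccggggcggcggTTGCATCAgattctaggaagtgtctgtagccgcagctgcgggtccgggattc

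Targets of NRF2, the factor that answers electrophiles and oxidants, were also lower after the combination. Of 20 listed targets 18 were compared, 4 were lower and 1 was higher, beside 8.17 and 5.36% of all genes. By exon depth 17 of the 18 were below 0, beside 46.0% of all genes, with a median of −0.81. On both measures 1 was lower, HMOX1, and 1 was higher. HMOX1, which degrades heme, had 83.9 FPKM (79.5 to 88.3) after the combination, against 307 FPKM (294 to 321) after Cur and Pip, and NaB alone and control cells had 52.0 and 38.3 FPKM. ABCC2, an export pump for conjugates, had 57.6 and 195 FPKM in the combination and in Cur and Pip, and −1.46 by exon depth. GSR, which regenerates glutathione, had 40.9 and 109 FPKM, short of the limit by FPKM. NQO1, a quinone reductase, had 181 FPKM after the combination and 204 FPKM after Cur and Pip. TXNRD1, thioredoxin reductase, had 263 and 348 FPKM. FTL, ferritin light chain, was listed at 0 after Cur and Pip, after NaB alone and in control cells and at 26972 FPKM after the combination, with an exon depth of 18618 after the combination and 2870 after Cur and Pip. FTL has many processed copies, and its level is uncertain. The antioxidant response element, written TGACNNNGC and read on both strands, matched in 3 of 12 promoters, beside 13.6% of all.

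The aldo-keto reductases, several of which are NRF2 targets, split within the family. AKR1C1 had 956 FPKM after the combination and 4433 FPKM after Cur and Pip, with a log2 fold change of −2.21 by FPKM and −0.65 by exon depth, and AKR1C3 had 170 and 350 FPKM, whereas AKR1C4, the liver form, had 266 FPKM after the combination and 37.5 FPKM after Cur and Pip. AKR1C2 was listed at 256 FPKM after the combination and at 0 after Cur and Pip. The AKR1C genes are near-identical neighbours that share reads, so these levels are uncertain one by one. TFRC, the transferrin receptor that imports iron, had 109 FPKM after the combination, against 46.5 FPKM after Cur and Pip, and NaB alone and control cells had 104 and 102 FPKM. NCOA4, which delivers ferritin to lysosomes, had 125 and 52.0 FPKM in the combination and in Cur and Pip. GPX4, the peroxidase that guards membranes against ferroptosis, had 372 and 332 FPKM, a log2 fold change of 0.16.

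Ribosomal protein genes were mostly lower after the combination. Of 46 listed, 41 were compared, and 15 were lower and 1 was higher past the limit, beside 8.17 and 5.36% of all genes. The median was −0.81 by FPKM and −0.73 by exon depth, and by exon depth 35 of 41 were below 0. Of the 36 listed in both libraries, 10 were lower and 1 was higher, and 9 of the lower calls in the list held on both measures. RPL8 had 167 FPKM after the combination and 785 FPKM after Cur and Pip, and RPL18 had 98.5 and 314 FPKM. RPS23 had 58.6 FPKM after the combination and 337 FPKM after Cur and Pip, but its log2 fold change was −2.51 by FPKM and −0.61 by exon depth. RPS24 went the other way, with 834 FPKM after the combination and 203 FPKM after Cur and Pip, and so in a smaller measure did RPL24 and RPLP0, with log2 fold changes of 0.86 and 0.64. These genes are short and have many pseudogenes, and NaB alone over control gave a list median of 0.03 by FPKM and −0.20 by exon depth.

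Subunits of the proteasome, all 31 compared, gave 4 lower and 1 higher, beside 8.17 and 5.36% of all genes. Their median was −0.40 by FPKM and −0.23 by exon depth. PSMC5 was lower on both measures, with 44.8 FPKM after the combination and 159 FPKM after Cur and Pip, while PSMB2 was at −1.83 by FPKM and 0.07 by exon depth. Heat shock proteins gave 2 lower of 14 and a median of −0.30. HSP90AB1, a cytosolic chaperone, had 624 FPKM after the combination and 1204 FPKM after Cur and Pip, and HSPD1, the mitochondrial chaperonin, had 596 and 357 FPKM. Chaperones of the endoplasmic reticulum were close to the median of all genes, at 0.14 over 17. HSPA5, the main one, had 603 FPKM after the combination and 608 FPKM after Cur and Pip. GAPDH, a glycolytic enzyme often used as a reference gene, had 216 FPKM after the combination and 1627 FPKM after Cur and Pip, and by exon depth 566 and 1560, which was short of the limit.

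Genes of mitosis were higher after the combination than after Cur and Pip. All 35 were compared, with a median log2 fold change of 0.72 by FPKM and 0.87 by exon depth, and by exon depth 33 of the 35 were above 0, beside 53.5% of all genes. Past the limit 4 were higher and 2 were lower, beside 5.36 and 8.17% of all genes. The 2 lower ones, PLK1 and UBE2C, were listed at 0 after the combination although their exon depth was 24.7 and 22.9 after the combination and 7.58 and 11.4 after Cur and Pip. On both measures 2 were higher, CCNB2 and CDK1. CCNB2, cyclin B2, had 19.9 FPKM (18.3 to 21.6) after the combination, against 5.10 FPKM (4.49 to 5.70) after Cur and Pip, and 25.7 and 24.3 FPKM in NaB alone and control cells. CDK1, the kinase that drives entry into mitosis, had 16.2 FPKM after the combination and 4.58 FPKM after Cur and Pip, and 14.5 and 27.7 FPKM in NaB alone and control cells. MAD2L1, of the spindle checkpoint, had 15.2 and 3.71 FPKM in the combination and in Cur and Pip, and ECT2, needed for cytokinesis, had 23.9 and 7.63 FPKM. TOP2A, the topoisomerase of dividing cells, had 19.9 FPKM after the combination and 8.77 FPKM after Cur and Pip, below the 42.6 and 71.1 FPKM of NaB alone and control cells. By exon depth 32 of the 35 genes were lower after the combination than in control cells.

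The genes of the G1/S transition and DNA replication had a median near that of all genes. Of 38 compared, 4 were higher and 1 was lower, beside 5.36 and 8.17% of all genes, with a median of 0.14. On both measures 2 were higher and 1 was lower. PCNA, the sliding clamp of replication and also a p53 target, had 495 FPKM after the combination and 182 FPKM after Cur and Pip, and CDC25A, which activates cyclin-dependent kinases, had 22.4 and 7.13 FPKM, a call that was lost by exon depth (0.67). MCM2, of the replicative helicase, had 23.9 FPKM after the combination and 10.4 FPKM after Cur and Pip, while CDK4 had 28.0 and 75.4 FPKM and CCND1 had 12.6 and 23.0 FPKM. CDKN2B, an inhibitor of CDK4, had 14.1 FPKM after the combination and 43.4 FPKM after Cur and Pip (−1.55, and −1.48 by exon depth).

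The cell cycle homology region, a promoter element of late cell cycle genes written TTTGAA and read on both strands, was found in 16 of the 27 mitosis promoters in the table (59.3%), beside 15.4% of all promoters. All 16 were above 0 by exon depth, as were 33 of the 35 genes of the whole list. By FPKM, PLK1, ESPL1 and BUB1B among the 16 were below 0, at −3.34, −0.46 and −0.08. The changes by exon depth ran from 0.37 for BUB1B to 1.78 for CCNB2 (chr15:59104896-59105195, plus strand), the largest among them. Its promoter is shown with the element in capitals, 29 bases before the start.
CCNB2: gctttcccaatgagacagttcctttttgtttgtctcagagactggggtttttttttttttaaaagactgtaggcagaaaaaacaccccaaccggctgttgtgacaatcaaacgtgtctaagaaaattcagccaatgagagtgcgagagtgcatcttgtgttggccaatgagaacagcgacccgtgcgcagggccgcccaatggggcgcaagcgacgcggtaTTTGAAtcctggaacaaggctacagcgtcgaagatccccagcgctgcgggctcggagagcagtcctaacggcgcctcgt

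Targets of p53 were higher after the combination. All 26 were compared, with 4 higher and none lower past the limit, beside 5.36 and 8.17% of all genes. The median was 0.95 by FPKM and 0.63 by exon depth, and 23 of 26 were above 0 by exon depth, beside 53.5% of all genes. Of the 4, BAX, POLH and PLK3 were listed at 0 after Cur and Pip, so that 1 of the 23 listed in both libraries was higher, PLK2, and 3 of the 4 held on both measures. PLK2, a kinase of the centriole cycle, had 96.1 FPKM (91.97 to 100.3) after the combination and 24.8 FPKM (23.4 to 26.2) after Cur and Pip, and 11.8 and 6.35 FPKM in NaB alone and control cells. FAS, the death receptor, had 21.9 FPKM after the combination and 7.49 FPKM after Cur and Pip, and MDM2, which degrades p53, had 90.1 and 46.3 FPKM. DDB2, of DNA repair, had 25.2 and 9.21 FPKM. BAX, which opens the mitochondrial outer membrane, was listed at 45.4 FPKM after the combination and at 0 after Cur and Pip, with an exon depth of 29.9 and 7.82.

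GADD45A, BBC3, CDKN1A and PMAIP1, which the study chose for qRT-PCR, stayed within the limit. GADD45A, which answers DNA damage, had 184 FPKM after the combination and 218 FPKM after Cur and Pip (log2 fold change −0.25). BBC3, which encodes the death protein PUMA, had 40.1 and 27.4 FPKM (0.53), CDKN1A, the inhibitor p21, had 387 and 292 FPKM (0.40), and PMAIP1, which encodes NOXA, had 10.99 and 4.88 FPKM (1.03). In control cells these genes had 47.2 FPKM of GADD45A, 11.7 of BBC3, 68.5 of CDKN1A and 1.91 of PMAIP1.

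**Figure D3:**
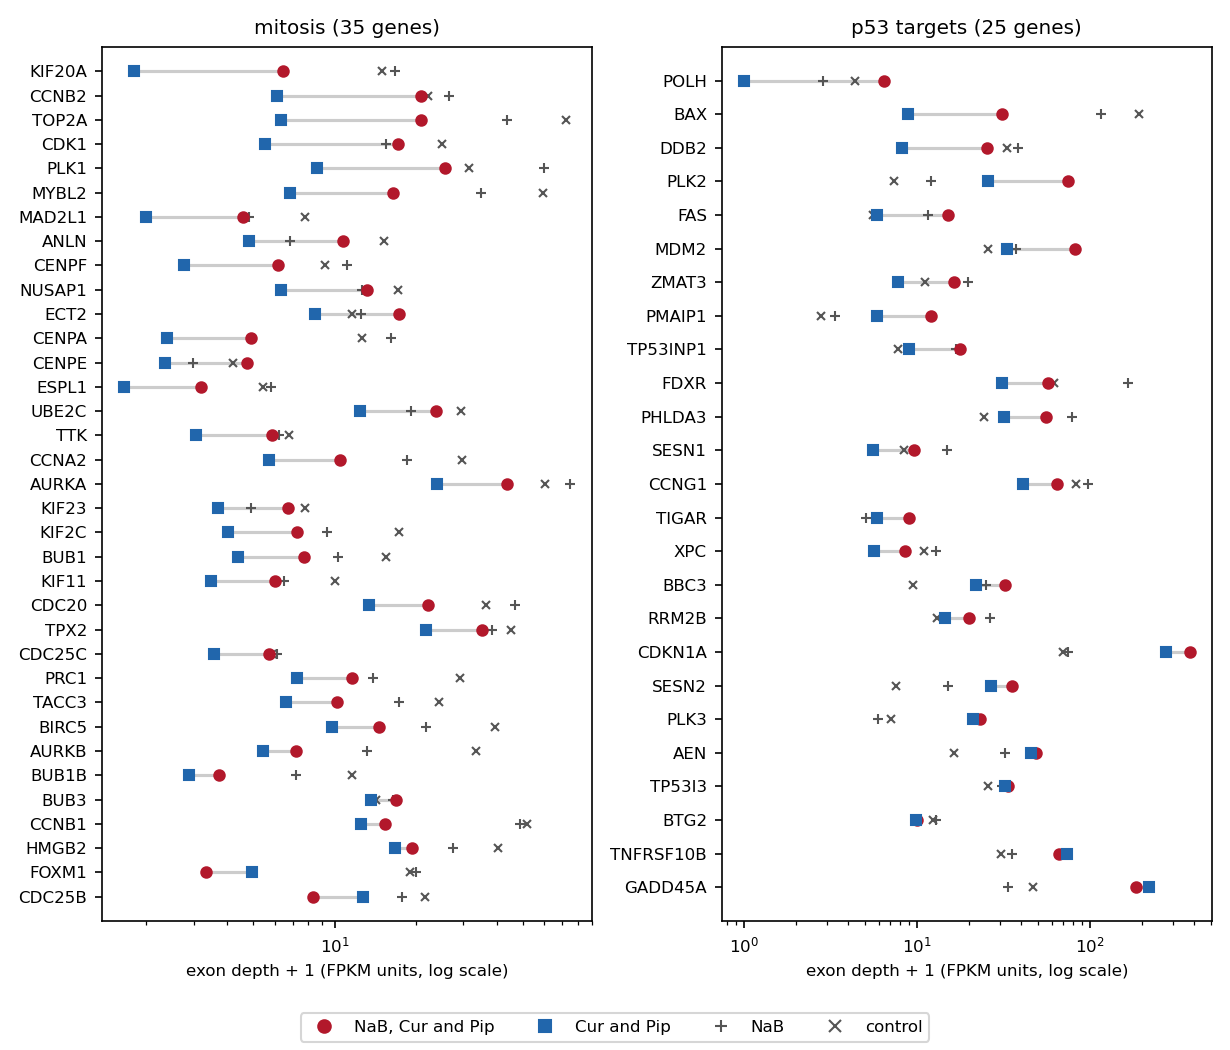
Exon depth plus 1 (x axis, FPKM units, log scale) of the 35 mitosis genes (left) and 25 of the 26 p53 targets (right) in HepG2 after the combination (red circles), Cur and Pip (blue squares), NaB (plus signs) and in control cells (crosses), 1 library each. The red circle lies right of the blue square for 33 of 35 mitosis genes and for 23 of the p53 targets, and the crosses of 32 of the 35 mitosis genes lie right of the red circles.

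Genes that promote apoptosis as a whole stayed near the median of all genes, at 0.03 over 26, with 2 higher and 1 lower. CYCS, cytochrome c, had 91.7 FPKM after the combination and 23.7 FPKM after Cur and Pip (1.91, and 1.46 by exon depth), and BIK, a BH3-only protein, had 6.53 and 2.40 FPKM. The 12 compared genes that block apoptosis had a median of 0.53 by FPKM and 0.41 by exon depth. Of the 10 listed in both libraries, 8 were above 0. Past the limit, MCL1 and BCL2L2 were lower and none was higher, beside 8.17 and 5.36% of all genes. Both of these were listed at 0 after the combination, with an exon depth of 34.1 and 7.65, against 106 and 36.3 after Cur and Pip. BIRC2 and BIRC3, ubiquitin ligases that restrain death receptor signalling, had 27.6 and 2.42 FPKM after the combination and 12.1 and 0.66 FPKM after Cur and Pip.

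Enzymes of polyamine metabolism gave 2 higher and none lower of 10, beside 5.36 and 8.17% of all genes, and a median of 0.58. AMD1, which makes the aminopropyl donor, had 87.5 FPKM after the combination, against 18.9 FPKM after Cur and Pip, and NaB alone and control cells had 82.7 and 90.1 FPKM. ODC1, the first enzyme of the pathway, had 511 FPKM (489 to 533) after the combination and 152 FPKM (145 to 159) after Cur and Pip, above the 141 and 117 FPKM of NaB alone and control cells. SAT1, which acetylates polyamines for export, had 712 and 324 FPKM in the combination and in Cur and Pip. The E-box CACGTG, on which MYC acts, matched in 1 of 8 promoters, beside 7.435% of all.

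Genes of cholesterol synthesis were above 0 by exon depth in 21 of 23, with a median of 0.40 by FPKM and 0.68 by exon depth. Past the limit 2 were higher and 2 lower, beside 5.36 and 8.17% of all genes, with 1 each on both measures. IDI1 and HMGCS1, enzymes of the mevalonate pathway, had 127 and 94.2 FPKM after the combination and 56.0 and 43.7 FPKM after Cur and Pip. FDFT1, which makes squalene, was listed at 0 after the combination, with an exon depth of 0, and at 60.2 FPKM after Cur and Pip. Genes of fatty acid synthesis gave no call among 20 and a median of 0.14.

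Targets of YAP and TEAD factors, which answer cell shape and contact, had a median of 0.52. Past the limit 1 was higher and 2 were lower of 15, beside 5.36 and 8.17% of all genes. AMOTL2, a feedback inhibitor of YAP, had 23.6 FPKM after the combination and 6.63 FPKM after Cur and Pip, CCN2 had 187 and 71.2 FPKM, ANKRD1 had 48.7 and 18.4 FPKM and CCN1 had 86.9 and 43.6 FPKM. The 2 lower ones, FOSL1 and TEAD4, were listed at 0 after the combination and had an exon depth of 21.3 and 9.58, against 56.3 and 14.7 after Cur and Pip. The TEAD element GGAATG was found on either strand in 4 of 9 promoters (44.4%), beside 14.05% of all. The promoter of CCN2 (chr6:131951323-131951622, minus strand) had 3 matches, in capitals, that begin 169, 104 and 95 bases before the start, and it had the largest change by exon depth among the members with a match, 1.41.
CCN2: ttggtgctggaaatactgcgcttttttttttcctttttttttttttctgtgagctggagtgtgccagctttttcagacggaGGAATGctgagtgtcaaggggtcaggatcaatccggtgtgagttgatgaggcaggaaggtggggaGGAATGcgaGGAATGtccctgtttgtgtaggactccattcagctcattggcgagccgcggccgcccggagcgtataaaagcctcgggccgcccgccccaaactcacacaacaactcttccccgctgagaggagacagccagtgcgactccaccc

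Several secreted factors were lower after the combination, and others, such as DKK1 and CCL20, were higher. Of 14 compared senescence and secretome genes 4 were lower and none was higher, with a median of −0.36. The 4 include CDKN2B, the inhibitor of CDK4 named above. Over all genes 8.17% were lower and 5.36% were higher. Of the 13 members listed in both libraries, 4 were above 0, among them LMNB1 at 1.35 and IGFBP6 at 0.67. TGFB1, a growth inhibitor of epithelia, was listed at 0 after the combination and had 194 FPKM after Cur and Pip, with an exon depth of 37.5 and 150 in the same order. AREG, a ligand of the epidermal growth factor receptor, had 5.22 FPKM after the combination and 37.0 FPKM after Cur and Pip, TIMP1, an inhibitor of metalloproteinases, had 119 and 419 FPKM, and the ATF4 target GDF15, a stress cytokine, had 1015 and 1908 FPKM. CCL20, a chemokine, went the other way, with 55.7 FPKM after the combination and 14.8 FPKM after Cur and Pip, and so did TNFAIP3, a brake on NF-kB, with 22.6 and 7.30 FPKM (1.51, and 1.14 by exon depth). IL11, a cytokine, had 141 FPKM after the combination and 63.0 FPKM after Cur and Pip (1.15), short of the limit. IER2, an immediate early gene, had 154 FPKM after the combination and 34.9 FPKM after Cur and Pip. AP-1 and immediate early genes had a list median of 0.21 with 1 higher and 1 lower of 20.

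Liver genes as groups stayed near the background. Albumin family and apolipoprotein genes gave 2 higher and 3 lower of 23, acute phase proteins 1 higher of 15, coagulation and complement 1 lower of 25, and the medians were −0.08, −0.09 and −0.05. SERPINA1, the elastase inhibitor of plasma, had 735 FPKM after the combination and 2193 FPKM after Cur and Pip, while FGA, a fibrinogen chain, had 99.9 and 31.6 FPKM and AFP, the fetal albumin, had 627 and 356 FPKM. The hepatocyte transcription factors HNF4A and FOXA2 had 25.3 and 20.4 FPKM after the combination and 26.6 and 21.2 FPKM after Cur and Pip. In drug metabolism, SULT1C2, a sulfotransferase, had 16.6 FPKM after the combination and 2.84 FPKM after Cur and Pip, and SULT1A1 had 8.08 and 29.6 FPKM (−1.75, and −1.16 by exon depth).

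Of the genes tied to boron and water channels, SLC4A11, named a borate transporter in earlier work on its family, had 4.99 FPKM after the combination and 6.12 FPKM after Cur and Pip, and AQP3, an aquaglyceroporin, had 266 and 151 FPKM, with 13.5 and 7.13 FPKM in NaB alone and control cells. Neither was past the limit. Sirtuins, NAD-dependent deacetylases, gave 5 compared of 7. SIRT1 had 22.1 FPKM after the combination and 13.4 FPKM after Cur and Pip, and SIRT3 was listed at 0 after the combination and at 2.18 FPKM after Cur and Pip. Respiratory chain subunits encoded in the nucleus had a median of 0.02 over 36, and all 5 that were lower past the limit were listed at 0 after the combination. No mitochondrially encoded mRNA was listed in a HepG2 library.

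The other lists held few calls, to be read beside 5.36% higher and 8.17% lower of all genes. MAPK feedback genes gave none among 13, tubulins and the actin cytoskeleton 1 higher of 24, glycolysis 1 higher and 2 lower of 19, and autophagy and lysosome genes 1 higher and 2 lower of 24. LDHA, which makes lactate, had 346 FPKM after the combination and 98.6 FPKM after Cur and Pip (1.80, and 1.38 by exon depth), and TUBB3, a beta tubulin, had 347 and 93.7 FPKM. Amino acid transporters gave 3 lower of 15, extracellular matrix and integrin genes 3 higher and 3 lower of 27, and interferon-stimulated genes 2 higher and 2 lower of 20. No call among the glycolysis genes, the autophagy and lysosome genes or the amino acid transporters held on both measures. Extracellular matrix and integrin genes kept 2 higher and 1 lower on both measures, and so did interferon-stimulated genes. MT2A, the main metallothionein, was listed at 0 after the combination and had 665 FPKM after Cur and Pip, but its log2 fold change by exon depth was −0.40. The metallothionein list had 1 higher and 1 lower of 8 and a median of 0.33. Of its 6 members listed in both libraries, 5 were above 0.

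**Figure D4:**
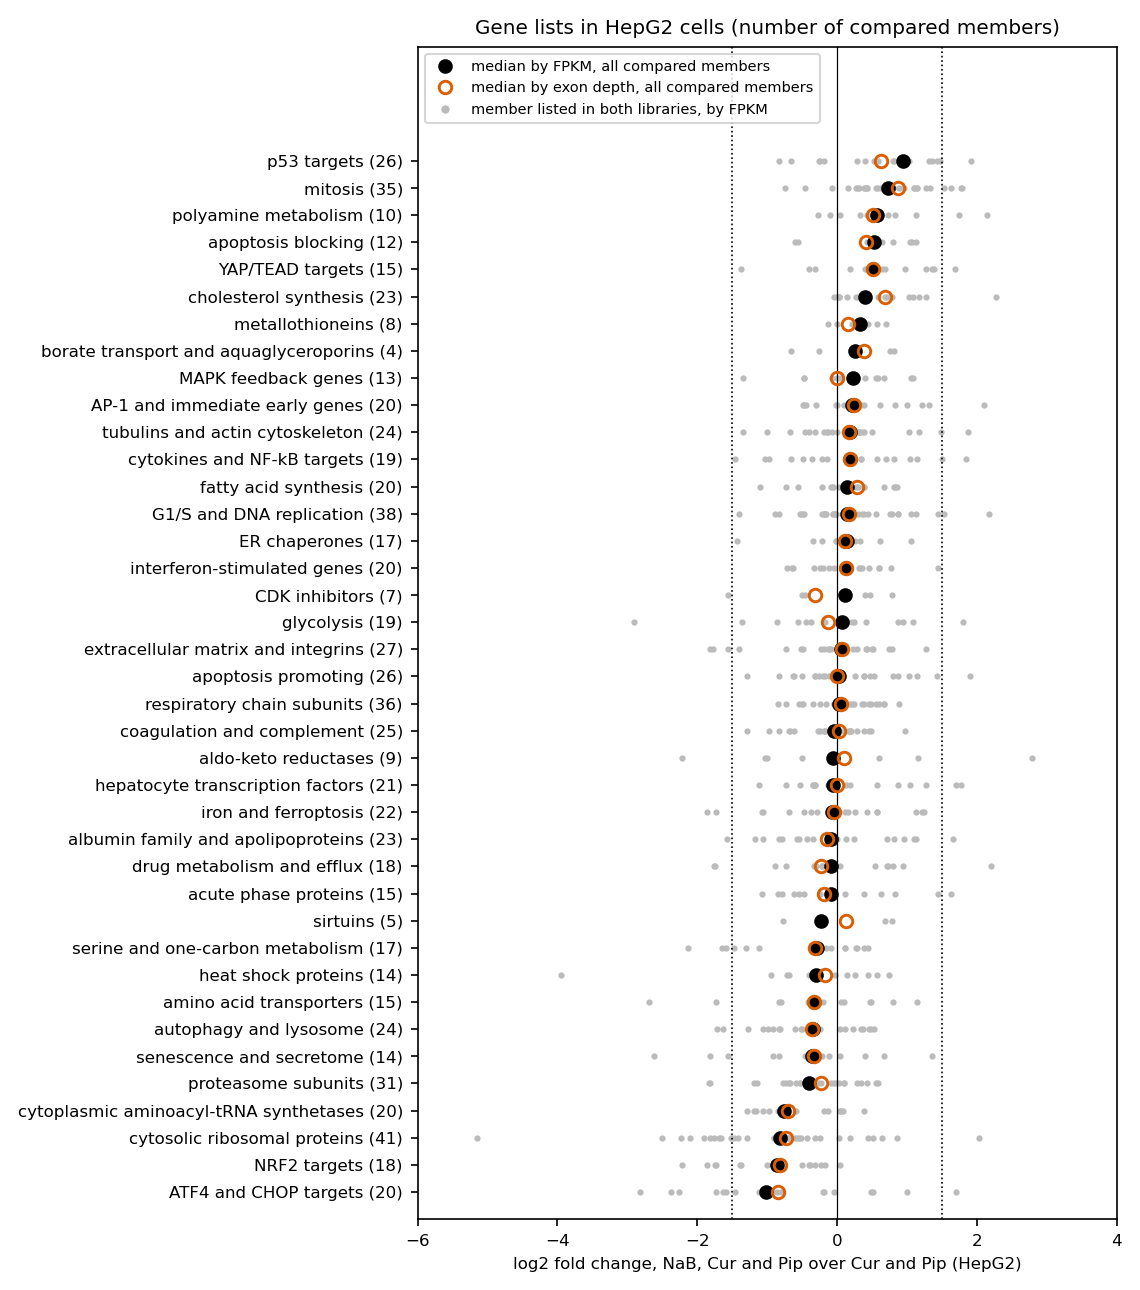
Log2 fold change of the combination over Cur and Pip (x axis) for 39 gene lists (rows, number of compared members in brackets). Filled circles are medians by FPKM and open circles medians by exon depth over all compared members, grey points are members listed in both libraries, and dotted lines mark 1.5 and −1.5. The p53 targets (0.95) and mitosis genes (0.72) stand at the top and the ATF4 and CHOP targets (−1.02) at the bottom, and in 32 of the 39 lists both medians have the same sign.

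The effect of NaB can be read in 3 other pairs that share no library with this one: NaB over control in HepG2, and both pairs labelled Hep3B, with and without Cur and Pip. By exon depth the aminoacyl-tRNA synthetases were below 0 in 14 of 20 after NaB on Cur and Pip in HepG2, in 16 after NaB alone in HepG2, and in 18 and 16 in the libraries labelled Hep3B with and without Cur and Pip. Serine and one-carbon genes were below 0 in 11 of 17 here, and in 14, 12 and 11 in the same order of pairs. ATF4 and CHOP targets were below 0 in 14 of 20 here and in 14, 10 and 13 of the other pairs, and NRF2 targets in 17 of 18 here and in 8, 16 and 14. Over the genes listed in both libraries of this comparison the share below 0 was 44.4%, and it was 46.3, 54.5 and 55.3% in the other pairs.

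Other groups differed between NaB with Cur and Pip and NaB alone in HepG2. Mitosis genes were above 0 by exon depth in 33 of 35 with Cur and Pip and below 0 in 23 of 35 without, where the median was −0.49. Cholesterol synthesis genes were above 0 in 21 of 23 with Cur and Pip and below 0 in 18 of 23 without, with a median of −0.90. Replication genes were above 0 in 24 of 38 with Cur and Pip and below 0 in 34 of 38 without. These differences between pairs were not tested, since each pair is 2 libraries.

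A limma fit on log2(FPKM + 1) over the 4 pairs asked for an effect of NaB shared by all of them, with 3 residual degrees of freedom. At a Benjamini-Hochberg adjusted p of 0.05 none of 15445 genes passed, 1346 had an unadjusted p under 0.05, and the same fit on exon depth called 1 gene of 16340, RNF166. PHGDH had a NaB effect of −1.90 ± 0.22 (SE, 4 pairs, limma adjusted p = 0.551), with log2 fold changes of −1.59, −1.55, −2.11 and −2.36 in the 4 pairs. PSAT1, DDIT4, ATF5 and BIK had effects of −1.16, −1.52, 1.68 and 1.32 with the same sign in 4 of 4 pairs and the same adjusted p. These genes and PHGDH had small unadjusted p-values in the limma fit, which favours genes with a shared sign. Their shared sign is therefore no separate support, and this comparison is 1 of the 4 pairs. ASNS by exon depth had −2.83, −2.63, −1.45 and −1.97 in the 4 pairs.

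**Figure D5:**
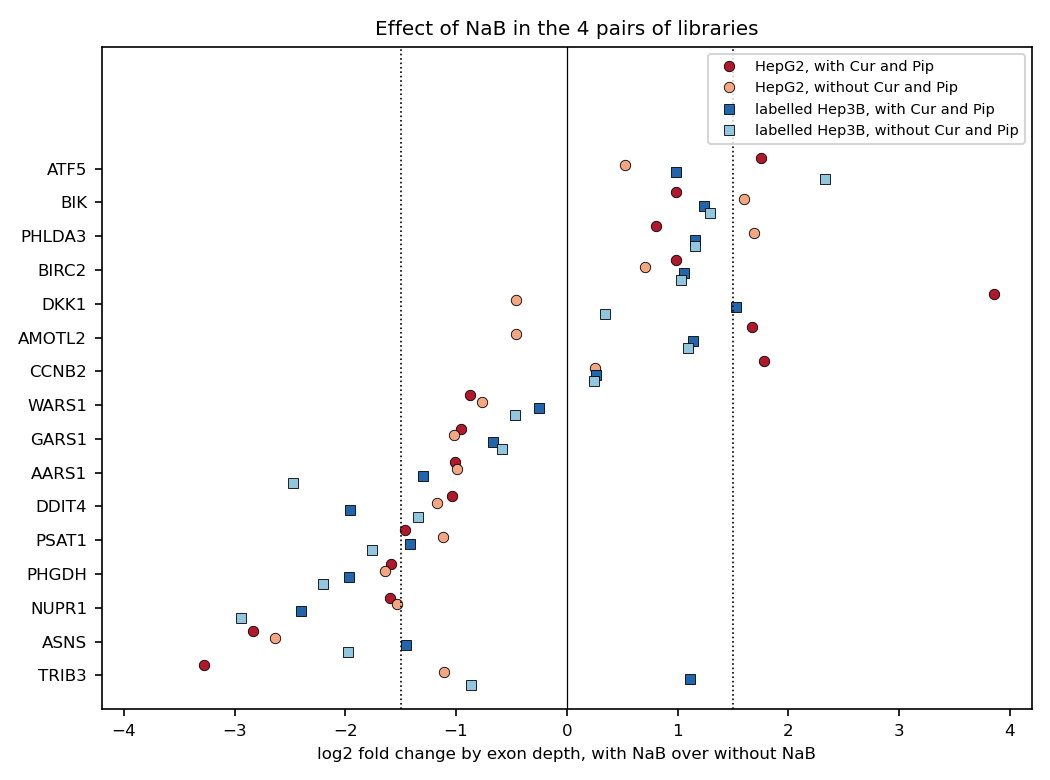
Log2 fold change by exon depth with NaB over without NaB (x axis) for 16 genes (rows) in the 4 pairs of libraries, HepG2 with and without Cur and Pip (circles) and libraries labelled Hep3B with and without Cur and Pip (squares). ASNS, NUPR1, PHGDH and PSAT1 lie below 0 and ATF5, BIK, PHLDA3 and BIRC2 above 0 in all 4 pairs, whereas DKK1 is at 3.86 in HepG2 with Cur and Pip and at −0.46 in HepG2 without. A small p in the limma fit over the 4 pairs favours a shared sign, so the shared sign is no separate support.

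RNF166, a ubiquitin ligase on chromosome 16 from 88696499 to 88706408 on the minus strand, was chosen after its values were seen. It was listed at 0 in the 4 libraries with NaB and at 15.4 FPKM after Cur and Pip in HepG2, 15.6 FPKM in HepG2 control cells, and 11.8 and 11.9 FPKM in the libraries labelled Hep3B with Cur and Pip and without treatment. With every NaB library at 0, its effect depends on the pseudocount. By exon depth it was −3.79 ± 0.16 (SE, 4 pairs, limma adjusted p = 0.0279), and by FPKM it was −3.86 with a limma adjusted p of 0.0748. After the combination in HepG2, 2 transcripts of 1.87 and 1.98 FPKM, each spanning under 2000 bases, still lay inside the gene on its strand but put nothing on its main exons. Of the neighbours of RNF166, CTU2 had 15.7 and 17.8 FPKM in the libraries labelled Hep3B with Cur and Pip and without treatment. CTU2 was listed at 0 in all other libraries, HepG2 without NaB included, and PIEZO1 had 22.9 to 37.8 FPKM in every library. An exact 0 in an assembly can be a failed estimate, and whether that holds for RNF166 was not tested.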

How the data were processed

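RNA-seq of HepG2 cells and of cells labelled Hep3B was read from 1 Cufflinks assembly per library, 8 in all. By the study's methods and the submitters' processing notes, strand-specific libraries were sequenced as paired ends, checked with FastQC, aligned to GRCh38 with STAR and assembled with Cufflinks, and Cuffdiff is also named; no tool version was given in the sources used. The FPKM values were made by the authors, with a 95% interval for each transcript, and were deposited without read counts, so no count test was possible. The number of fragments was estimated from coverage times length, at 300 sequenced bases a fragment.

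Transcripts were assigned to GENCODE 44 genes by at least 50% of their exonic bases on the same strand (bedtools 2.31.1) and FPKM was summed per gene. The interval of a gene took the root of the summed squared distances from the FPKM of each transcript to its bounds. Genes with an FPKM of 1 or more in either library were compared as log2(FPKM + 1), past a limit of 1.5. Exon depth apportioned the FPKM of all same-strand transcripts over the exonic bases of the main annotated transcript. The NaB effect over 4 pairs was fitted with limma 3.58.1 in R 4.3.3, and the scripts were tested on simulated data. Named genes were the 10 highest and 10 lowest protein-coding genes listed in both libraries, with an FPKM of 5 or more, disjoint intervals and a change past 1.5 on both measures, the genes the study chose for qRT-PCR, GAPDH, the 3 highest and 3 lowest members of each list, and all members of 4 short lists; other genes were named after their values were seen, and a few genes that met the rule are not reported here. The members and the 40 gene lists were chosen with earlier results of these data known. Promoters came from RefSeq (GRCh38.p14) and were matched by symbol. Alternatives changed the pseudocount, limit, scaling, transcript choice and measure.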

Additional observations from a re-analysis of the deposited data

Results flagged for a closer look

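RPS28 had a log2 fold change of −5.15 for NaB on top of Cur and Pip in HepG2 and of 4.16 for NaB alone over control, the opposite direction. The difference between these changes was not tested, and RPS28 is a short gene with processed copies that share its reads.

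Transcripts assigned to no annotated gene entered no comparison. There were 10019 of them after the combination and 10843 after Cur and Pip, of which 7968 and 8905 had a single exon, and there were 5720 after NaB alone and 3774 in control cells.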

How the results depend on the processing

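With a pseudocount of 5, 258 genes were higher and 464 lower. At the pseudocount of 1, genes listed in both libraries gave 215 and 288. With a limit of 1 there were 1342 and 1784, and with a limit of 2 there were 409 and 705. After scaling to TPM there were 1072 and 1520. Past the limit on both measures, an alternative added after seeing the data, were 320 and 464. Higher genes made up 39.6% of the calls by FPKM and 47.5% by exon depth. The limma fit called 1 lower gene on exon depth. On FPKM it called none, with all pairs or with each pair left out in turn. The exon depth fit was not repeated with pairs left out. HSPE1 turned to 4.25 without transcripts covering several genes, NR1H3 to −0.10 and PSMB2 to 0.066 by exon depth, and the cause was not tested. Of 68 named genes listed in both libraries and past the limit, 45 stayed past it by exon depth, 54 by the largest transcript and 67 after median scaling. List medians kept their sign in 32 of 39 lists by exon depth and 37 among genes listed in both. The limma fit pairs libraries by cell line and Cur and Pip. No fit paired by replicate was possible because the labels give no replicate numbers and each condition has 1 library, which also leaves the spread between cultures unknown.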
